A study of Mus musculus with 7 samples.

Results

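Small nucleolar RNAs and their relatives of the Cajal body were followed on 7 expression arrays of mouse sperm RNA. The genes were taken by name: a probe set was included when the platform annotation gave it exactly 1 gene symbol and that symbol began with Snora, Snord or Scarna and a number. This chose 81 probe sets with 78 symbols, of 23493 probe sets with 1 symbol on the array. They comprised 28 probe sets of H/ACA RNAs (26 Snora symbols), 47 of C/D RNAs (47 Snord symbols) and 6 of Cajal body RNAs (5 Scarna symbols). Another 46 probe sets carried such a name together with other gene symbols and were left out.

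The arrays compared sperm of a mouse line carrying a transgene for KDM1A, a histone lysine demethylase, with sperm of littermates and of C57BL/6 mice. TG3 males carried the transgene in generation 3, after heterozygous males had been bred to C57BL/6 females. nonTG3 males were wild-type littermates of that generation, and the line had been started by microinjection of C57BL/6 zygotes, which gave 2 female founders. TG3 had 3 arrays and nonTG3 had 3 arrays, each made from RNA pooled over 4 males, and C57BL/6 had 1 array from 5 males. The labels state neither the founder a male descended from, nor the promoter of the transgene, nor the ages of the males. Nor do they state whether pools had males in common, so a p-value here reflects only how much the pools differed, and C57BL/6 has no replicates. In what follows, the line is TG3 and nonTG3 together, that is 6 arrays, and differences are in log2 units.

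C/D RNAs guide an enzyme complex that methylates the ribose of chosen nucleotides, and H/ACA RNAs guide one that turns uridine into pseudouridine, mainly in ribosomal RNA within the nucleolus. Cajal body RNAs carry the same kinds of guide and direct the modification of spliceosomal RNAs in that neighbouring nuclear body. In mammals most of these RNAs are cut from introns of host genes, many of which encode ribosomal proteins or are long noncoding RNAs whose introns hold several guides. Mature sperm carry a condensed nucleus that is largely silent in transcription, so their RNA is mostly inherited from earlier germ cells.

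The signals are log2 RMA values as deposited by the authors. Sperm chromatin genes, such as those for protamines and transition proteins, averaged 9.51 to 9.88 on the 6 arrays of the line and 11.26 on the C57BL/6 array (4 of 5 listed genes measured), where array medians lay between 3.73 and 3.80. Markers of round spermatids and meiotic cells averaged 3.74 to 3.89 in the line and 6.37 in C57BL/6 (5 of 6 measured). Markers of Sertoli and Leydig cells averaged 2.85 to 3.13 and 4.95 (8 of 9 measured), though 3 of the 8 were higher in the line. The C57BL/6 array thus stood apart in its germ cell markers and in 5 of these 8 somatic testis markers. Mitochondrially encoded genes were uneven within groups, at 8.80, 11.44 and 11.51 on TG3 replicates 1, 2 and 3, 11.55, 9.98 and 8.91 on nonTG3 replicates 1, 2 and 3, and 11.24 in C57BL/6 (mean of 10 genes). Fibroblast and muscle markers (7 of 7 measured) had their highest means on the same arrays that were low in mitochondrial RNA, 6.53 on TG3 replicate 1 and 6.24 on nonTG3 replicate 3, and 5.02 to 5.59 on the other 5 arrays. Leukocyte markers (8 of 8 measured) averaged 4.26 to 4.79 in the line and 4.42 in C57BL/6, and markers of the epididymal epithelium (7 of 8 measured) averaged 4.88 to 6.26 in the line and 5.43 in C57BL/6. Kdm1a, the targeted gene, read 5.06, 5.27 and 5.27 on TG3, 5.07, 5.27 and 5.27 on nonTG3 and 5.64 on C57BL/6, so TG3 and nonTG3 overlapped. The sources used here do not state whether its probe set detects RNA of the transgene.

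H/ACA and C/D RNAs were spread around the median signal of each array, and most Cajal body RNAs lay above it. H/ACA RNAs above the median numbered 11 to 17 of 28 over the 7 arrays, and C/D RNAs numbered 21 to 24 of 47. Cajal body RNAs above it numbered 5 of 6 on every array, the exception being Scarna8. Among microRNA genes, the other large set of short RNAs on the array, 19.1% to 23.5% of 498 probe sets lay above it. Because probe sets differ in how strongly they respond, these signals give no order of abundance between genes, and whether values below the median lie above background was not measured. In bulk RNA, fewer cells of a type and less RNA per cell cannot be told apart.

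The C/D RNA with the brightest signal was Snord66, which read 10.17, 9.79 and 10.14 on TG3 replicates 1, 2 and 3, 9.79, 9.97 and 10.32 on nonTG3 and 9.41 on C57BL/6. The 6 arrays of the line lay above the C57BL/6 array and TG3 overlapped nonTG3. The brightest H/ACA signal was that of Snora21, with 6.95, 6.73 and 7.29 on TG3, 6.59, 7.21 and 7.37 on nonTG3 and 6.64 on C57BL/6, where the groups overlapped. Among Cajal body RNAs, Scarna10, known in humans as a guide of both modification types, read 5.41, 6.81 and 7.30 on TG3, 6.22, 7.40 and 5.56 on nonTG3 and 6.81 on C57BL/6. It was lowest on TG3 replicate 1 and nonTG3 replicate 3, and its values spanned 1.98 log2 units.

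**Figure D1:**
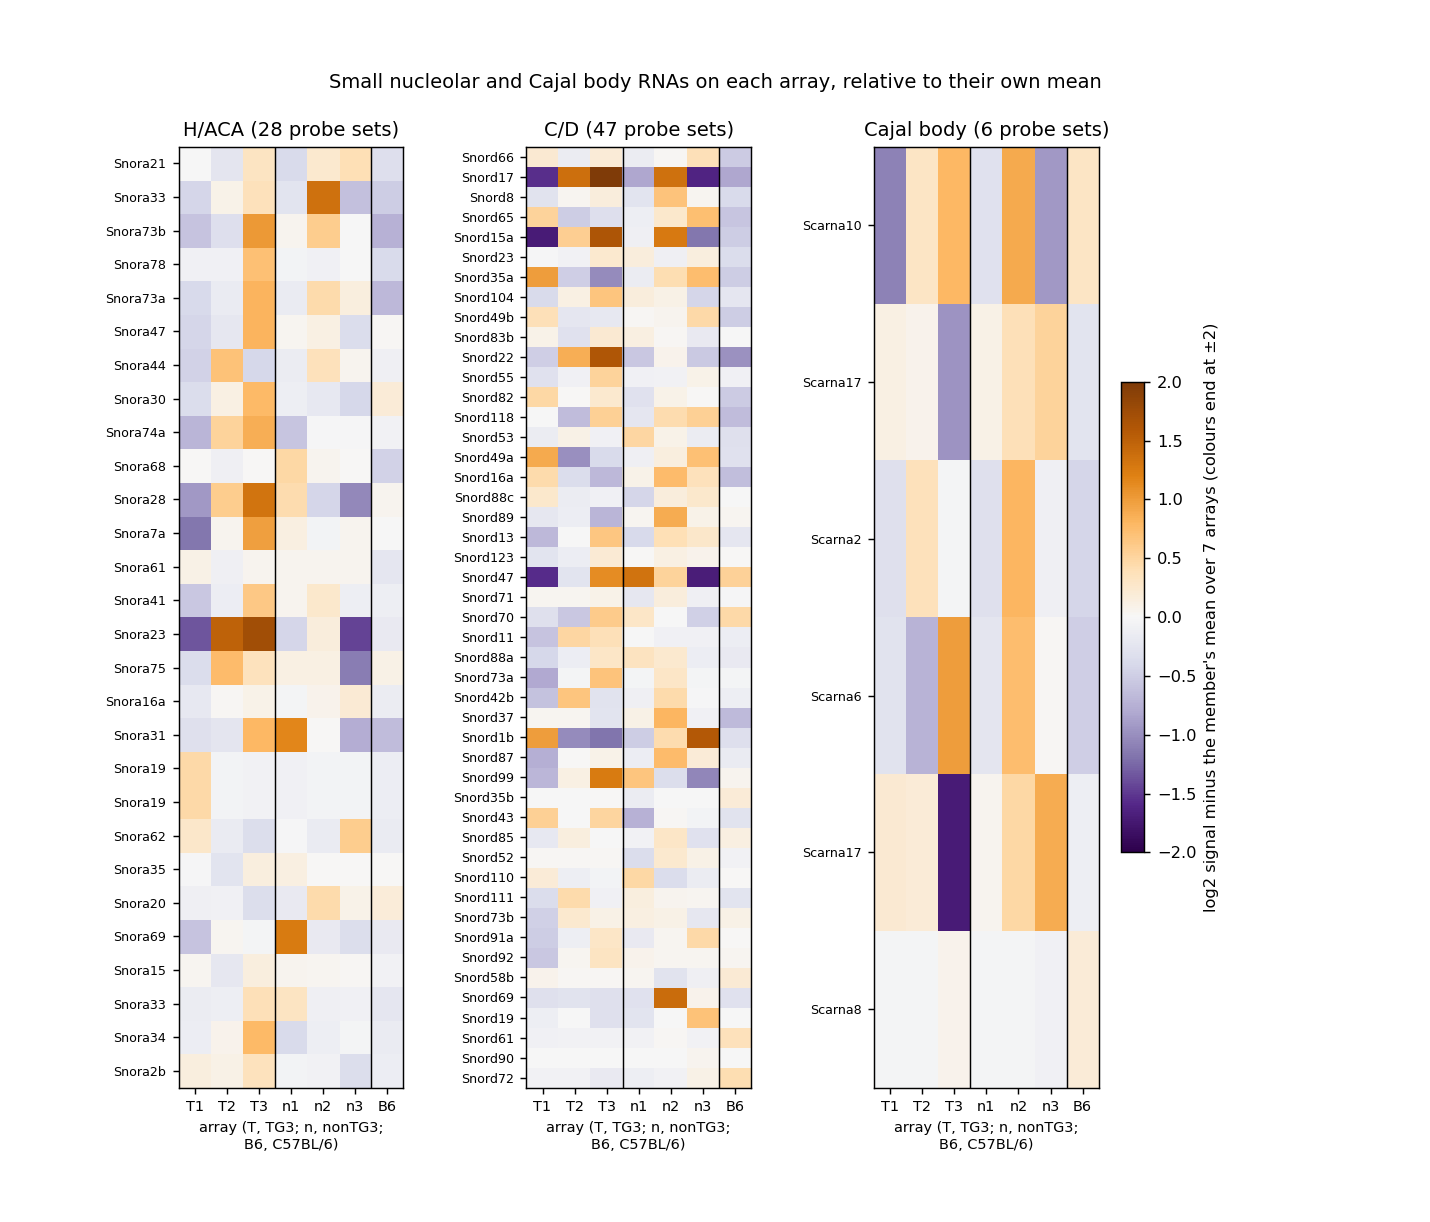
Log2 signal of each of the 81 probe sets on each of the 7 arrays, minus that probe set's own mean over the 7 arrays; rows are ordered by mean signal within the H/ACA, C/D and Cajal body classes, columns are T for TG3, n for nonTG3 and B6 for C57BL/6, and colours end at ±2. Snord17, Snord15a and Snora23 are darkest below zero on T1 and n3, and Scarna17 on T3.

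The guide RNAs varied more between arrays than most probe sets did. A range of at least 2 log2 units over the 7 arrays was seen in 11 of 81 probe sets (13.6%), of which 3 were H/ACA, 7 C/D and 1 Cajal body RNAs, against a background of 2.84% of all probe sets with 1 symbol. Among probe sets whose mean was above the median mean, the shares were 8 of 42 (19%) and 4.46% of 11747. The median range was 1.16 for H/ACA, 1.01 for C/D and 1.61 for Cajal body RNAs, against 0.71 for microRNA genes and 0.66 for all probe sets. Without TG3 replicate 3 the 11 became 5, and without TG3 replicate 1 and nonTG3 replicate 3, left out together, it was also 5. Leaving out arrays can only keep or lower a range, and the shares of all probe sets without these arrays are not given here. A smaller count alone therefore does not show that the excess over all probe sets went away. The range was read from these same arrays, so it describes them and has no test.

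**Figure D2:**
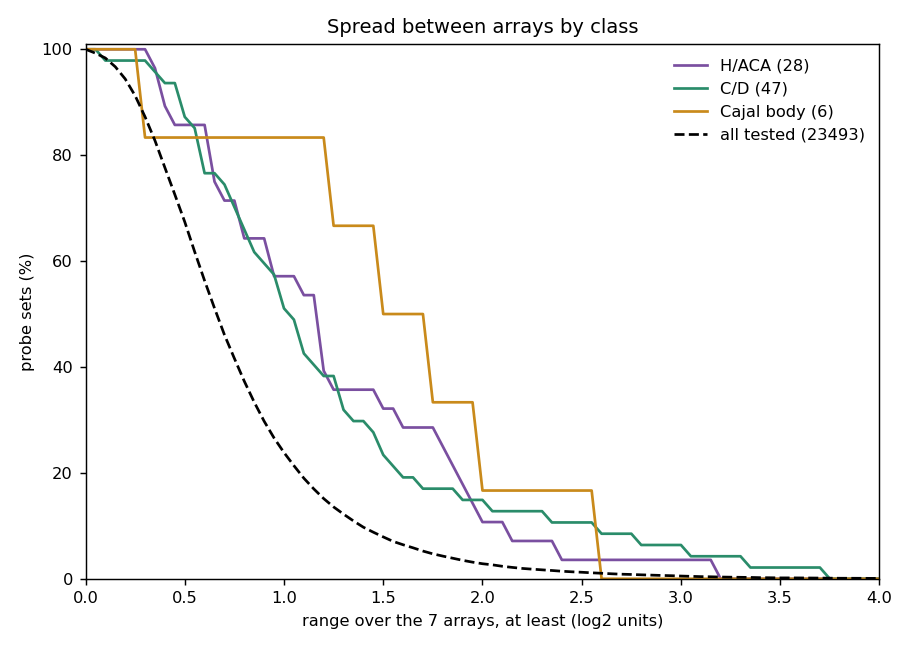
Share of probe sets (vertical axis, percent) whose range over the 7 arrays is at least the value on the horizontal axis, in log2 units, for H/ACA (28), C/D (47) and Cajal body (6) RNAs and for all 23493 tested probe sets. At 2 log2 units the C/D and H/ACA lines lie above the dashed line of all probe sets, which is at 2.84%.

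Snord17 had the widest range of the 81, 3.74 log2 units. It read 7.40, 10.33 and 11.07 on TG3 replicates 1, 2 and 3, 8.15, 10.31 and 7.33 on nonTG3 and 8.13 on C57BL/6. Snord15a, a guide of the large ribosomal RNA processed from the ribosomal protein gene Rps3, read 5.19, 7.47 and 8.53 on TG3, 6.79, 8.17 and 5.74 on nonTG3 and 6.40 on C57BL/6. Both were high on TG3 replicates 2 and 3 and nonTG3 replicate 2, and lowest on TG3 replicate 1 and nonTG3 replicate 3, so TG3 and nonTG3 overlapped. Snora23 read 2.39, 5.22 and 5.47 on TG3, 3.31, 3.90 and 2.29 on nonTG3 and 3.56 on C57BL/6, with the same pair of arrays at the bottom.

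Snord47, whose host gene Gas5 holds a cluster of C/D RNAs, read 2.59, 3.90 and 5.27 on TG3, 5.49, 4.68 and 2.47 on nonTG3 and 4.69 on C57BL/6. Snora28 read 3.70, 5.22 and 5.95 on TG3, 5.05, 4.20 and 3.58 on nonTG3 and 4.68 on C57BL/6. TG3 replicate 1 and nonTG3 replicate 3 were again the lowest arrays for both. Snord99 showed the same pair lowest at 1.74 and 1.37, with 3.70 on TG3 replicate 3 the highest of its 7 values.

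Snord22, needed for maturation of the small ribosomal RNA in frog oocytes, read 4.76, 6.12 and 6.86 on TG3, 4.69, 5.32 and 4.71 on nonTG3 and 4.27 on C57BL/6. It was high on TG3 replicates 2 and 3, and its C57BL/6 value was the lowest of the 7. Snora7a read 3.40, 4.60 and 5.53 on TG3, 4.70, 4.51 and 4.60 on nonTG3 and 4.55 on C57BL/6, so its range came from TG3 replicates 1 and 3, while the nonTG3 arrays lay close together.

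Snord1b and Snord35a ran the other way. Snord1b read 3.66, 1.64 and 1.49 on TG3, 2.15, 3.10 and 4.25 on nonTG3 and 2.35 on C57BL/6. Snord35a, one of the RNAs from introns of Rpl13a that have been linked to lipotoxic stress in rodent cells, read 7.54, 6.06 and 5.53 on TG3, 6.39, 6.96 and 7.29 on nonTG3 and 6.04 on C57BL/6. Both were highest on TG3 replicate 1 and nonTG3 replicate 3 and lowest on TG3 replicate 3.

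Scarna17 has a pair of probe sets, which moved together in part. One read 6.57, 6.53 and 5.49 on TG3, 6.56, 6.84 and 6.98 on nonTG3 and 6.20 on C57BL/6, and the other read 5.99, 5.96 and 4.06 on TG3, 5.82, 6.24 and 6.65 on nonTG3 and 5.65 on C57BL/6. In both, TG3 replicate 3 was the lowest array and the other 6 lay within 1 log2 unit. The paired probe sets of Snora19 had identical values on all 7 arrays, and those of Snora33 had means of 6.64 and 1.79.

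**Figure D3:**
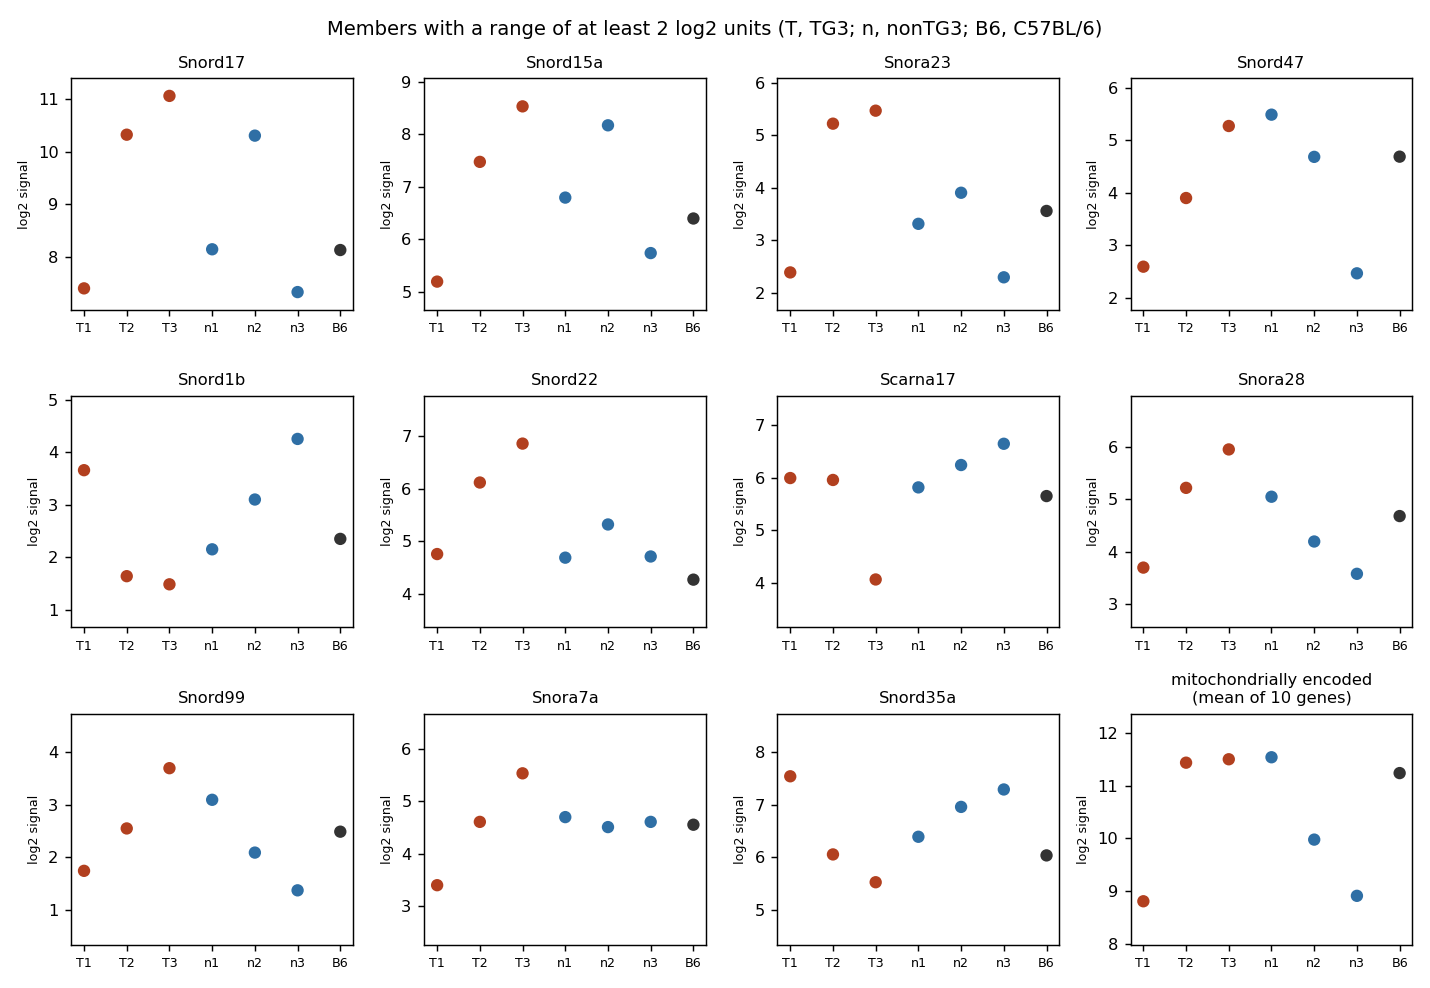
Log2 signal on each array for the 11 probe sets with a range of at least 2 log2 units and, in the last panel, the mean of 10 mitochondrially encoded genes; points are single arrays of TG3 (T), nonTG3 (n) and C57BL/6 (B6), and every panel spans 4.4 log2 units. Snord17, Snord15a, Snora23, Snord47, Snora28 and Snord99 are lowest on T1 and n3, as are the mitochondrial genes, while Snord1b and Snord35a are highest there.

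TG3 replicate 1 and nonTG3 replicate 3 were both below the other 5 arrays in 14 of 81 probe sets (17.3%), against 8.13% of all probe sets. The 14 were Snord47, Snord104, Snord17, Snord73b, Snord85, Snord99, Snord15a, Snora75, Snora28, Snora47, Snora23, Snora30, Snora69 and Scarna10. Both arrays were above the other 5 in 8 (9.88%, against 12.2%), namely Snord49a, Snord49b, Snord65, Snord1b, Snord66, Snord88c, Snord35a and Snora62. Among brighter probe sets 8 of the 42 had both arrays lowest, against 11.5% of all bright probe sets. These were the 2 arrays with the lowest mitochondrial RNA and the highest fibroblast and muscle markers, given above, and the part of either in the guide RNA values was not tested.

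By class, the median H/ACA signal was 3.66, 4.39 and 4.52 on TG3 replicates 1, 2 and 3, 4.30, 4.05 and 3.56 on nonTG3 and 3.98 on C57BL/6. The C/D median was 3.37, 3.68 and 3.79 on TG3, 3.71, 3.66 and 3.32 on nonTG3 and 3.89 on C57BL/6. Both classes were lowest on TG3 replicate 1 and nonTG3 replicate 3. The Cajal body median, over 6 probe sets, did not follow them: it was 5.90, 6.24 and 5.86 on TG3, 5.92, 6.84 and 6.15 on nonTG3 and 5.75 on C57BL/6. Counted per array, 24 of 81 probe sets had their lowest value on TG3 replicate 1 and 30 had their highest on TG3 replicate 3, against 15.05% and 18.21% of all probe sets. A tie was counted for the first tied array in the order TG3, nonTG3, C57BL/6, which favours TG3 replicate 1.

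TG3 was set against nonTG3 to ask what differs with the transgene among littermates. No guide RNA passed the test: limma called 0 of 81, against 0% of all 23493 probe sets, and the smallest adjusted p among them was 0.923. At an unadjusted p under 0.05, 1 of 81 was higher in TG3, against a background of 1.48%, and 0 were lower, against 0.898%. The median difference was −0.05 for H/ACA, −0.08 for C/D and −0.15 for Cajal body RNAs, against 0.0045 for all probe sets. Of the 81 means, 31 were higher in TG3 (38.3%) and 50 lower, where 51.2% of all probe sets and 49.4% of microRNA genes were higher. The signs of the H/ACA and Cajal body medians rested on single arrays. Leaving out TG3 replicate 1 or 2 gave H/ACA medians of 0.11 and 0.07, and leaving out nonTG3 replicate 1 or 2 gave 0.014 and 0.015. The Cajal body median was 0.08 when nonTG3 replicate 2 was left out. The C/D median stayed below 0 in each case, between −0.12 and −0.01. The 95% interval of a difference had a median half-width of 0.65 log2 units over the 81, against 0.39 over all probe sets, and it differed widely between RNAs.

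The RNA with an unadjusted p under 0.05 was Snora2b, which read 1.36, 1.31 and 1.57 on TG3, 1.16, 1.14 and 0.88 on nonTG3 and 1.08 on C57BL/6. All TG3 arrays lay above all nonTG3 arrays, as in 2.47% of all probe sets, with a difference of 0.35 (95% interval 0.05 to 0.65, limma adjusted p = 0.923). Its signal lay far below the array median. Snord89 was the one RNA with all TG3 arrays below all nonTG3 arrays, as in 1.65% of all: 4.07, 4.15 and 3.58 on TG3, 4.33, 5.16 and 4.38 on nonTG3 and 4.33 on C57BL/6, a difference of −0.69 at a limma adjusted p of 0.923.

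The RNAs with wide ranges had differences that their spread covered. Snord17 averaged 9.60 ± 1.94 in TG3 and 8.60 ± 1.54 in nonTG3 (SD, n = 3 each), a difference of 1.00 with a 95% interval of −1.99 to 4.00. Snora23 averaged 4.36 ± 1.71 in TG3 and 3.17 ± 0.81 in nonTG3, a difference of 1.19. Snord22 differed by 1.01, with a 95% interval of −0.36 to 2.37, and the lower probe set of Scarna17 by −0.90. None of these 4 passed the test.

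The line was set against C57BL/6 to ask how both kinds of littermates differ from the unmanipulated strain. Here 710 probe sets were called by limma (3.02%), of which 40 were higher in the line (0.17%) and 670 lower (2.85%), and 0 of 81 guide RNAs were among them. The smallest adjusted p among the 81 was 0.111. At an unadjusted p under 0.05, 3 were higher in the line (Snord82, Snord66 and Snora68), against a background of 4.29%, and 2 were lower (Snord72 and Snord61), against 7.96%. With 1 C57BL/6 array, assumed to vary like the others, the interval of a difference had a median half-width of 0.86 log2 units for the 81 and 0.52 for all probe sets.

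Signals of the line were on average a little above C57BL/6. The median difference was 0.17 for H/ACA, 0.15 for C/D and 0.21 for Cajal body RNAs, against 0.04 for all probe sets and 0.07 for microRNA genes. Means were higher in the line for 22 of 28, 33 of 47 and 4 of 6, or 59 of 81 in all (72.8%), where 61.0% of all probe sets and 68.7% of microRNA genes were higher. Among the 42 brighter probe sets 35 were higher (83.3%), against 56.5% of all bright probe sets. Medians of the 42 were 0.21, 0.41 and 0.29 by class and 0.35 together, against 0.03 for all bright probe sets. For Cajal body RNAs the direction depended on the group, with a median of −0.11 for TG3 alone and 0.58 for nonTG3 alone against C57BL/6.

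All 6 arrays of the line lay above C57BL/6 in 18 of 81 probe sets (22.2%), against a background of 18.2%, and below it in 5 (6.17%), against 14.3%. The 18 were Snord8, Snord22, Snord23, Snord37, Snord49b, Snord53, Snord65, Snord66, Snord82, both probe sets of Snora19, Snora61, Snora68, Snora73a, Snora73b, Snora78, Scarna2 and the dimmer probe set of Snora33. The 5 were Snord35b, Snord58b, Snord61, Snord72 and Scarna8, and each of these averaged below the array median. In the remaining 58 the C57BL/6 value fell within the range of the line.

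**Figure D4:**
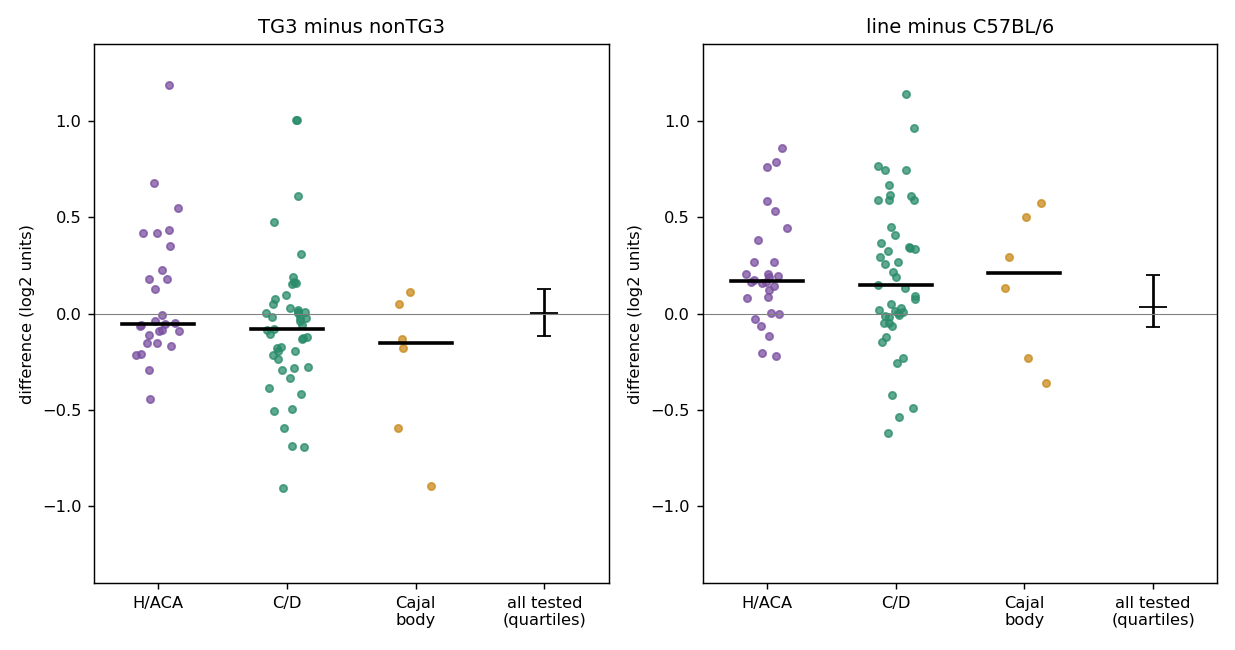
Difference of group means in log2 units for each probe set (points) of the H/ACA, C/D and Cajal body classes, TG3 minus nonTG3 on the left and line minus C57BL/6 on the right; thick lines are class medians, and the last column shows the median and quartiles of all tested probe sets. Medians lie at −0.05, −0.08 and −0.15 on the left and at 0.17, 0.15 and 0.21 on the right.

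Among the 18, Snord82 read 5.39, 4.92 and 5.15 on TG3, 4.61, 4.99 and 4.92 on nonTG3 and 4.38 on C57BL/6, a difference of 0.61 (95% interval 0.07 to 1.15, limma adjusted p = 0.321). It lies within Ncl, the gene of nucleolin. Snora73a, whose yeast counterpart is needed for early cleavage of ribosomal precursor RNA, read 5.12, 5.34 and 6.34 on TG3, 5.34, 5.96 and 5.67 on nonTG3 and 4.84 on C57BL/6. The closely related Snora73b, from the same host gene Snhg3, read 5.06, 5.32 and 6.68 on TG3, 5.69, 6.23 and 5.64 on nonTG3 and 4.91 on C57BL/6. Similar sequences may share probes, so these 2 are not independent, and their differences of 0.79 and 0.86 did not pass the test (limma adjusted p = 0.686 and 0.794). Snord66 differed by 0.62 (95% interval 0.02 to 1.21, limma adjusted p = 0.381).

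Snord61 had the smallest p of the comparison. It read 1.24, 1.25 and 1.25 on TG3, 1.25, 1.35 and 1.25 on nonTG3 and 1.69 on C57BL/6, a difference of −0.42 (SE 0.10, limma adjusted p = 0.111). Snord72 read 1.07, 1.07 and 0.96 on TG3, 1.03, 1.07 and 1.25 on nonTG3 and 1.56 on C57BL/6. Both signals lay far below the array median, and for both C57BL/6 was the highest of the 7 arrays.

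Snord118, Snord13 and Scarna2 are known to be transcribed from promoters of their own. Snord118, which takes part in maturation of the large ribosomal RNA, read 4.69, 4.07 and 5.26 on TG3, 4.48, 5.13 and 5.26 on nonTG3 and 4.07 on C57BL/6. Snord13, linked in human cells to acetylation of the small ribosomal RNA, read 3.51, 4.19 and 4.83 on TG3, 3.80, 4.58 and 4.47 on nonTG3 and 3.97 on C57BL/6. Scarna2 read 5.97, 6.64 and 6.24 on TG3, 5.98, 7.09 and 6.18 on nonTG3 and 5.85 on C57BL/6. For Snord118 the C57BL/6 value equalled the lowest line array to 2 decimals, for Scarna2 it was below all 6, and for Snord13 it lay within the range of the line.

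All 78 symbols were found among the RefSeq genes. Of these genes, 74 lay wholly within another gene annotated as protein-coding or long noncoding, without regard to strand, which was not given. Such a gene is called overlapping here. The exceptions were Scarna2, Snord118, Snord13 and Snord89. Ribosomal protein genes numbered 17 and overlapped 19 of the 78, and 15 long noncoding RNA genes overlapped 21. Of the 68 guide RNAs with exactly 1 overlapping gene, that gene was measured for 56, which gave 56 pairs and 43 different genes. The 6 guide RNAs with several overlapping genes were left out of these pairs. The guide RNA had the larger range in 29 of the 56 pairs, with a median range of 1.11 for guide RNAs and 0.95 for the overlapping genes.

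In 7 of these pairs the guide RNA spanned at least 2 log2 units, and the overlapping gene spanned less in each, 0.38 to 1.62. The pairs were picked by the guide RNA's range, so this is a description without a test. Snx5, a sorting nexin of endosomes that holds Snord17, read 4.72, 5.33 and 4.88 on TG3, 4.72, 4.72 and 4.50 on nonTG3 and 4.42 on C57BL/6, a range of 0.90 where Snord17 had 3.74. Rps3, with Snord15a, read 6.63, 6.37 and 6.15 on TG3, 6.50, 5.26 and 6.02 on nonTG3 and 5.93 on C57BL/6. It was lowest on nonTG3 replicate 2, one of the arrays on which Snord15a was high. Ipo7, a nuclear import receptor with Snora23, read 4.14, 4.95 and 4.57 on TG3, 4.14, 4.14 and 3.41 on nonTG3 and 4.38 on C57BL/6, and shared with Snora23 its lowest array, nonTG3 replicate 3. Snhg1, with Snord22, and Eif5, a translation initiation factor gene with Snora28, had ranges of 0.65 and 0.38. Snx5, Ipo7 and Snhg1 were highest on TG3 replicates 2 and 3, as were Snord17, Snora23 and Snord22. Of the other overlapping genes, Rps3 and Rpl32 (which overlaps Snora7a) were highest on TG3 replicate 1. Snhg12 (which overlaps Snord99) was highest on nonTG3 replicate 1 and Eif5 on C57BL/6.

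Of the 43 overlapping genes 1 was called between the line and C57BL/6, lower in the line, where 2.85% of all probe sets were called lower, so the share was near the background. This was Tcp1, which encodes a chaperonin subunit and holds Snora20: it read 5.67, 6.16 and 5.71 on TG3, 5.91, 5.56 and 5.91 on nonTG3 and 7.96 on C57BL/6. Tcp1 fell by 2.13 in the line, at a limma adjusted p of 0.0122. That call was lost with the TG3 and C57BL/6 arrays alone (adjusted p = 0.176), with nonTG3 and C57BL/6 alone (adjusted p = 0.112) and without TG3 replicate 1 and nonTG3 replicate 3 (adjusted p = 0.132), where fewer arrays enter the fit. Snora20 ranged between 1.77 and 2.03 on TG3 and between 1.93 and 2.55 on nonTG3, and read 2.28 on C57BL/6, a difference of −0.20 (limma adjusted p = 1.00). The C57BL/6 array, which was the highest of 7 for Tcp1, lay within the range of the line for Snora20. Over the 43 genes the median difference was 0.012, with 18 lower in the line.

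**Figure D5:**
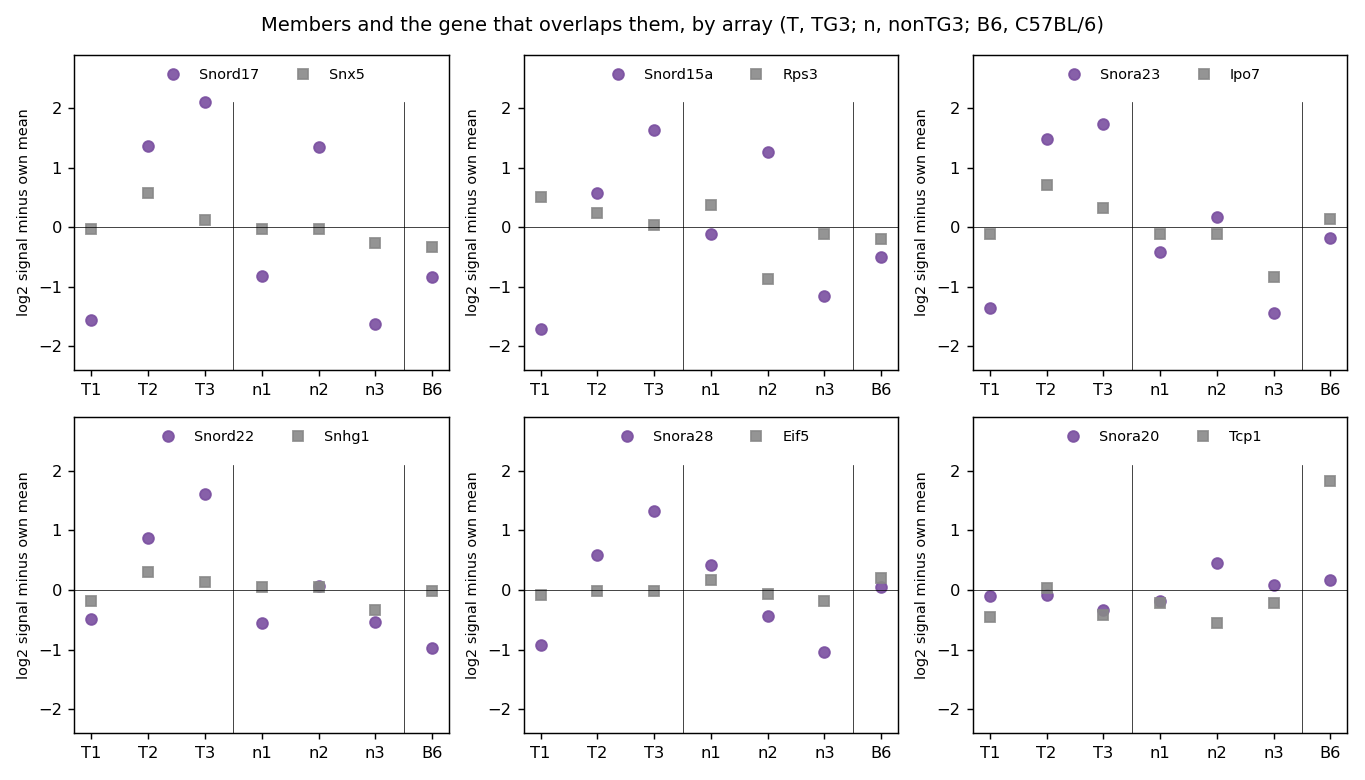
Log2 signal on each array minus the gene's own mean over the 7 arrays, for 6 guide RNAs (circles) and the gene that overlaps each (squares), on TG3 (T), nonTG3 (n) and C57BL/6 (B6) arrays; the pairs were chosen after their values were seen. Snord17 spans 3.74 log2 units while Snx5 spans 0.90, and Tcp1 stands out on B6 while Snora20 does not.

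Guides that share an overlapping gene were not always alike. The noncoding gene Snhg12 overlaps Snora16a, Snora44, Snora61 and Snord99, whose ranges were 0.40, 1.16, 0.34 and 2.33. The noncoding gene 2410006H16Rik overlaps Snord49a, Snord49b and Snord65, which were all highest on TG3 replicate 1 and nonTG3 replicate 3: Snord65 read 7.58, 6.54 and 6.74 on TG3, 6.94, 7.31 and 7.77 on nonTG3 and 6.48 on C57BL/6, and Snord49a read 5.56, 3.68 and 4.28 on TG3, 4.56, 4.82 and 5.38 on nonTG3 and 4.37 on C57BL/6. The overlapping gene itself ranged between 6.61 and 7.51 on TG3, with 6.84 its lowest value on nonTG3 and 6.69 on C57BL/6, and had those same 2 arrays highest.

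Genes for proteins that bind, assemble and carry these RNAs, together with the telomerase RNA Terc and the telomerase protein gene Tert, made a list of 27, of which 25 were measured. limma called 0 of the 25 in either comparison. The background share of calls was 3.02% for the line against C57BL/6 and 0% for TG3 against nonTG3. At such shares, a count of 0 does not set these 25 genes apart from other genes. Between the line and C57BL/6, 19 were lower in the line and 6 higher, with a median of −0.06. Of all 23493 probe sets, 9154 were lower and 14333 higher, with a median of 0.04. At an unadjusted p under 0.05, 4 were lower in the line, against 7.96% of all probe sets, and 0 were higher, against 4.29%. The smallest adjusted p was 0.0793, for Znhit6, an assembly factor of C/D particles, at a difference of −0.54. Snu13, a core protein of C/D particles, differed by −0.91 (limma adjusted p = 0.109). Pih1d1, also an assembly factor of C/D particles, differed by −0.48 (limma adjusted p = 0.109), and Nop10, a core protein of H/ACA particles, by −0.94 (limma adjusted p = 0.237). Between TG3 and nonTG3, 14 were lower in TG3 and 11 higher, where 51.2% of all probe sets were higher. At an unadjusted p under 0.05, 1 was higher in TG3, against 1.48% of all probe sets, and 0 were lower, against 0.898%. That gene was Nop10, which averaged 6.40 ± 0.02 in TG3 and 5.72 ± 0.43 in nonTG3 (SD, n = 3 each), a difference of 0.68 at a limma adjusted p of 0.923. Dkc1, the pseudouridine synthase of H/ACA particles, read 1.90, 2.16 and 2.03 on TG3, 2.16, 2.25 and 2.05 on nonTG3 and 2.23 on C57BL/6, below the array median throughout.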

How the data were processed

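RNA of 7 sperm pools was measured on Affymetrix arrays. The log2 intensities are as deposited by the authors, who used R 3.1.0, oligo, RMA and limma per the submitters' processing notes. RMA adjusts for background, gives all arrays one distribution of values and combines the probes of a set, which produces ties: 4 or fewer distinct values on the 6 line arrays in 30.9% of probe sets and in 13.6% of the guide RNAs. No source used here states a probe filter or genome build, and coordinates are therefore left out. Precision is limited by the number of arrays. Of 33604 probe sets, 23493 had 1 gene symbol in the platform annotation, 1801 had several and 8310 none.

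limma 3.58.1 in R 4.3.3 was fitted to the 7 arrays with a mean per group and eBayes (4 residual and 1.65 prior degrees of freedom), with Benjamini-Hochberg adjustment over the 23493 probe sets of each contrast and calls at an adjusted p under 0.05. C57BL/6, with 1 array, does not contribute to the estimated spread. The steps were tested on simulated data. The members and gene lists were chosen with earlier results of these data known. Named guide RNAs were, per class, the 5 brightest, the 3 of widest range, the 3 smallest p-values per contrast and direction and a list of well studied RNAs; others were named to complete a count, or after their values were seen. Listed protein genes and overlapping genes entered through the probe set with the highest mean. Overlaps and names came from RefSeq genes (assembly GRCm38.p6). TG3 and nonTG3 arrays share replicate numbers, but same-numbered arrays did not deviate together (r = −0.449, 0.0159 and −0.403), and they were not paired. Deviations were taken from a mean of 3 arrays per group, so these r values depend on one another and cannot exclude a pairing. The planned search for a sequence motif was not run. Figures were drawn with matplotlib 3.10.9.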

Additional observations from a re-analysis of the deposited data

How the results depend on the processing

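No guide RNA was called under any of the alternatives run for either comparison. The smallest adjusted p among them lay between 0.715 and 0.995 for TG3 against nonTG3 and between 0.0936 and 0.296 for the line against C57BL/6. With the replicate number as a block, limma called 0 guide RNAs, with a smallest adjusted p of 0.995.

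Among bright probe sets alone the C/D median of the line against C57BL/6 was 0.41. On all line arrays 0 guide RNAs lay below C57BL/6, and the share of all bright probe sets that did is not given here. The count with TG3 replicate 1 and nonTG3 replicate 3 both lowest was 8 (11.5% of all). Without those 2 arrays, an alternative chosen after seeing the data, 5 had a range of at least 2 and 30 lay above C57BL/6 on all arrays left, against 24.9% of all. Leaving out 1 array at a time, the count with a range of at least 2 lay between 5 and 11. The matching shares of all probe sets are not given for these counts of range.

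Of 651 values for 35 named results, 634 kept direction and call, 14 changed sign and 3 lost the call of Tcp1. Between TG3 and nonTG3, Scarna10 was −0.02 with array weights and −0.30 to 0.66 leaving out 1 array, Scarna2 was −0.35 to 0.20, and Snora16a was 0.037 without the 2 arrays. Between the line and C57BL/6, Snora75 was 0.05 with array weights, 0.16 for TG3 alone, 0.24 without the 2 arrays and −0.24 to 0.092 leaving out 1 array. Scarna17 was −0.006 for TG3 alone and Scarna10 was 0.12 without the 2 arrays. The cause was not tested. The alternative without imprinted Snord families was not run, since no member belongs to them. Dim signals limit what can be read, since background was not measured.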
